A study of Caenorhabditis elegans with 2 samples.

Results

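The mir-51 family of Caenorhabditis elegans consists of 6 hairpin genes, mir-51 to mir-56, and its loci were selected from the table by miRNA name alone. The members are cel-miR-51, cel-miR-52, cel-miR-53, cel-miR-54, cel-miR-55 and cel-miR-56, written below without the species prefix. They gave 12 mature microRNA (miRNA) loci, a 5p and a 3p arm per hairpin, of the 375 mature loci listed for the study, and all 12 passed the minimum of 20 reads over both libraries that was used for comparison. Small RNA had been sequenced from whole worms of the wild-type strain N2, with age given as Day 1, which received either enoxacin or vehicle. Each group was represented by 1 library, so group differences have no test here and no p-value is given. The submitters speak of 3 independent experiments, and the sources used here do not say whether these were pooled into each library. Enoxacin is an antibiotic of the fluoroquinolone class, and in mammalian cells it is known to enhance miRNA processing through TRBP, a partner of Dicer.

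A miRNA is cut from a hairpin precursor as a duplex of both arms. The arm that is kept by an Argonaute protein finds its targets mainly through the seed near its 5′ end, and the partner arm is mostly degraded. The members of the mir-51 family share a seed with the ancient miR-99/100 family of other animals. In the worm they are known to act redundantly: single mutants look nearly normal, whereas loss of the whole family is lethal in embryos, in which the pharynx fails to stay attached to the mouth. The family is known to be expressed widely from embryos to adults. The seed is known to lie on the 5p arm of mir-51, mir-52 and mir-53 and on the 3p arm of mir-54, mir-55 and mir-56. These 6 are called seed arms and the other 6 partner arms, an assignment that comes from general knowledge and not from the read counts.

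The library totals, recovered from the authors' columns, were 10698845 reads for vehicle and 8787665 for enoxacin, and all mature miRNA loci together took 3.74% and 3.78% of them. The unit of level is RPM (reads per 1000000 of the library total), in which a single read equals 0.0935 RPM in the vehicle library and 0.114 RPM in the enoxacin library. Ratios are enoxacin over vehicle, with exact 95% intervals that cover counting error only. The reads carry no molecular identifiers and may not each stand for a separate molecule, so even these intervals may be too narrow. Levels and abundance of different miRNAs are compared here as reads. Whether the libraries captured each miRNA equally well was not tested. In whole worms, fewer cells that express a miRNA and less of it per cell cannot be told apart. Of the miRNAs known from single tissues, those of muscle (miR-1), intestine (miR-60), neurons (miR-124) and epidermis and glia (miR-228) were read in both libraries, as were the embryonic miR-35 to miR-42, while the neuronal lsy-6 had no read in either. The summed intestinal reads of miR-60 came to 47.2 RPM for vehicle and 104 RPM for enoxacin, the muscle reads of miR-1 at 409 and 370 RPM, and the mir-35 family at 5666 and 5355 RPM. Whether a difference in tissue make-up moves with the values of the mir-51 family was not tested.

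The family lies at 3 places in the genome (ce10 coordinates). miR-51-5p is on chromosome IV from 11026053 to 11026075 and miR-53-5p on chromosome IV from 11027632 to 11027655, both on the minus strand, with 1517 bases between their hairpins' mature arms. miR-52-5p is also on chromosome IV, from 14033999 to 14034022 on the plus strand, 3006343 bases away from mir-53. miR-54-3p (chromosome X, 13144941 to 13144964), miR-55-3p (13144772 to 13144794) and miR-56-3p (13144636 to 13144657) form a cluster on the minus strand, in which all 6 mature arms lie within 371 bases. Their arms are compact, with 16 to 20 bases between the 5p and the 3p arm of each of the 6 hairpins. The seed arms of mir-52, mir-53 and mir-54 are 24 bases long, those of mir-51 and mir-55 are 23, and that of mir-56 is 22. In the annotation of another build, WBcel235, matched by hairpin name, the X cluster lies opposite to an intron of the protein-coding gene F09A5.3. In the same annotation a further miRNA gene, mir-55b, lies opposite to mir-55, and a non-coding RNA gene lies opposite to mir-52, while mir-51 and mir-53 overlap no other gene. The sources used here do not say how reads were assigned to strands, so reads of opposite genes may not be separable. Outside the family, miR-356a and miR-356b-3p overlap on opposite strands and had the same counts, 5 in vehicle and 4 in enoxacin. A pair of miR-5592 loci that overlap on opposite strands also had the same counts, 72 and 102. The other miR-5592 pair had 75 and 84 on the minus strand and 83 and 89 on the plus strand. Whether reads were counted without regard to strand was not tested.

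The family was the largest contributor to the miRNA pool of the 3 abundant families compared here. It held 123078 of the vehicle miRNA reads, or 30.7% (95% exact binomial interval 30.6 to 30.9%), and 108386 of the enoxacin miRNA reads, or 32.6% (32.4 to 32.8%). The mir-35 family held 15.1% in vehicle and 14.2% in enoxacin, and the mir-58/80 family 10.8% and 13.5%. These families are not the next largest contributors, since the single locus miR-66-5p held 18.7% in vehicle and 15.8% in enoxacin. In RPM the mir-51 family stood at 11504 in vehicle and 12334 in enoxacin, a summed ratio of 1.07 (1.06 to 1.08). All miRNAs outside the family together had a summed ratio of 0.983 (0.977 to 0.988). That sum leans on miR-66-5p, which held 27.0% of its vehicle reads and had a ratio of 0.852. The median ratio of the 140 compared loci outside the family was 1.09. Summed ratios were 0.945 for the mir-35 family and 1.26 for the mir-58/80 family. The position of the mir-51 family relative to 1 depended on scaling. Its summed ratio was 0.983 when scaled by the median of ratios and 0.988 with TMM. These settings lowered every log2 ratio by 0.13 and 0.12.

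The 6 seed arms spanned from 308 to 94260 reads in vehicle and from 469 to 78739 in enoxacin, and they had the same order in both libraries. miR-52-5p, the dominant member, had 94260 reads (8810 RPM) in vehicle and 78739 (8960 RPM) in enoxacin, and it was the most abundant miRNA of either library, ahead of miR-66-5p with 74882 and 52412 reads. miR-54-3p followed with 12106 reads (1132 RPM) in vehicle and 13014 (1481 RPM) in enoxacin. Its level lay 7.79-fold below that of miR-52-5p in vehicle and 6.05-fold below it in enoxacin.

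The middle of the order was held by 3 miRNAs of similar level. miR-56-3p, the last member of the X cluster, had 5865 vehicle reads (548 RPM) and 5765 enoxacin reads (656 RPM). miR-53-5p, which is nearly identical in sequence to miR-52-5p, had 5482 vehicle reads (512 RPM) and 5053 enoxacin reads (575 RPM). miR-51-5p, from the neighbouring hairpin, had 4423 vehicle reads (413 RPM) and 4966 enoxacin reads (565 RPM). The levels of miR-53-5p and miR-51-5p were not distinguishable in enoxacin at this depth, since miR-53-5p took 50.4% of the reads of the pair (49.5 to 51.4%), but it took 55.3% in vehicle (54.4 to 56.3%). For all other neighbours in the order, the share of their joint reads differed from an even split beyond counting error in both libraries.

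miR-55-3p had far fewer reads than the other seed arms, although it lies between mir-54 and mir-56 in the cluster. Its count was 308 (28.8 RPM) in vehicle and 469 (53.4 RPM) in enoxacin. It thus made up 1.68% of the reads of the 3 clustered seed arms in vehicle (1.503 to 1.88%) and 2.44% in enoxacin (2.22 to 2.66%). In vehicle its level lay below that of the partner arm miR-52-3p, and in enoxacin above it.

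**Figure D1:**
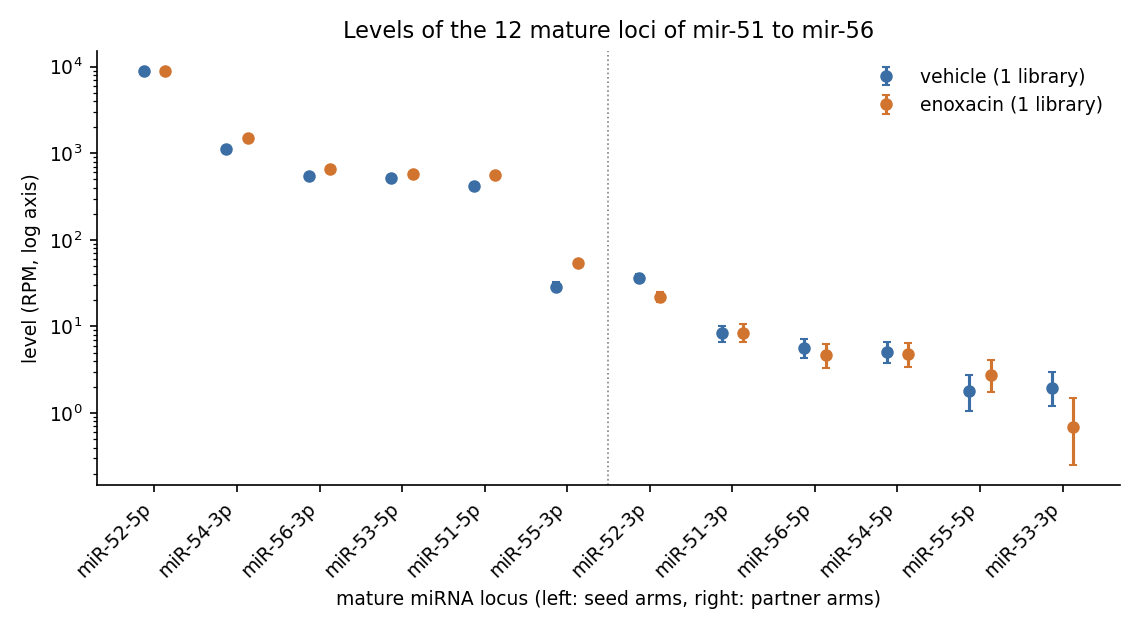
Level of each of the 12 mature loci in RPM (log axis) in the vehicle library and the enoxacin library, with seed arms left of the dotted line and partner arms right of it; bars are exact 95% counting intervals, and each group is 1 library. The seed arms run from miR-52-5p at 8810 and 8960 RPM down to miR-55-3p at 28.8 and 53.4 RPM, and miR-55-3p and miR-52-3p swap places between the libraries.

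All 6 seed arms had a ratio above 1 with an interval above 1, but by very different amounts. miR-52-5p differed least, with a ratio of 1.02 (1.01 to 1.03). The ratio was 1.12 for miR-53-5p (1.08 to 1.17) and 1.20 for miR-56-3p (1.15 to 1.24). It reached 1.31 for miR-54-3p (1.28 to 1.34) and 1.37 for miR-51-5p (1.31 to 1.42). miR-55-3p had the highest ratio of the 12 loci, 1.85 (1.60 to 2.15). Under median-of-ratios and TMM scaling the log2 ratio of miR-52-5p turned from 0.02 to -0.10 and -0.09. The log2 ratios of the other 5 seed arms stayed above 0 under every scaling run. That of miR-53-5p, however, fell from 0.17 to 0.04 (median of ratios) and 0.05 (TMM). Intervals under these scalings are not given here.

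A locus was called where the ratio was past 1.5-fold in either direction and the interval did not contain 1. By this rule 1 of the 12 family loci was higher, miR-55-3p, against 20 of all 152 compared loci (13.2%). The rule also called 2 family loci lower, the 3p arms of mir-52 and mir-53, against 12 of 152 (7.89%). Other genes are annotated opposite to mir-55 and mir-52, and their reads may not be separable from those of miR-55-3p and miR-52-3p. In either direction the rule called 3 of 12 in the family and 21.1% of all compared loci, so the family's count was near the background. At any fold, the interval lay above 1 for 6 of the 12, all of them seed arms, and below 1 for 2, against 32.2% and 17.1% of the compared loci. Abundant loci have narrow intervals, so the count at any fold follows depth as well as the size of the ratio. The median log2 ratio of the 12 loci was 0.10, close to the 0.13 of all 152, and that of the 6 seed arms was 0.32.

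**Figure D2:**
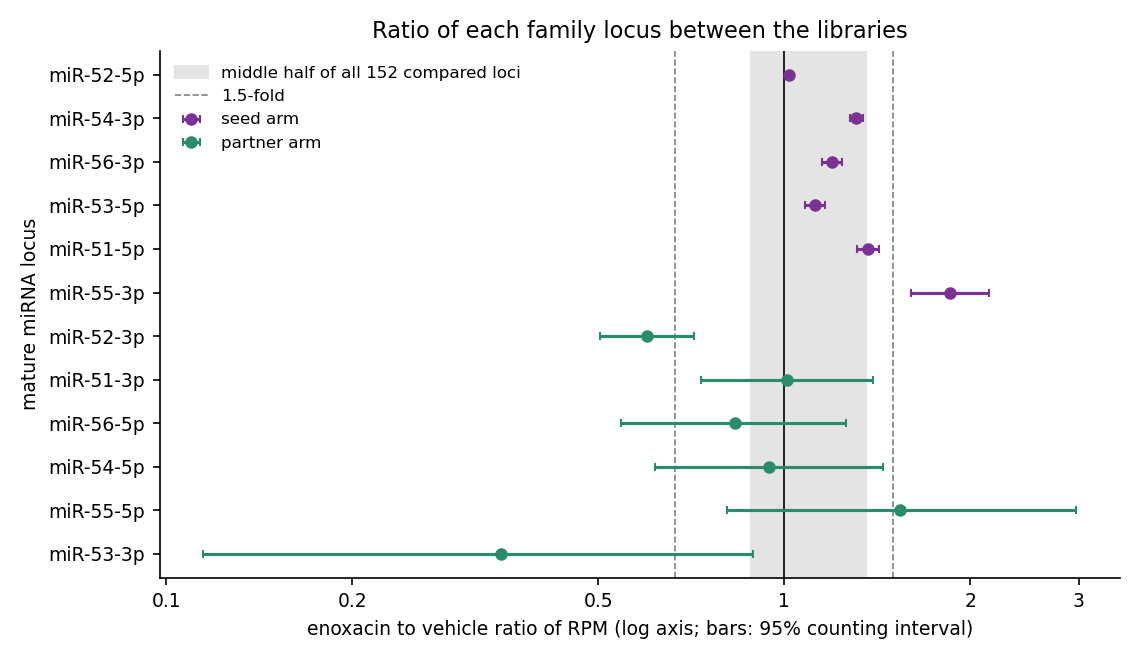
Enoxacin to vehicle ratio of RPM (log axis) for the 12 loci, with exact 95% counting intervals; the grey band spans the quartiles of all 152 compared loci (0.884 to 1.35) and the dashed lines mark 1.5-fold. miR-55-3p lies right of the band with its interval beyond 1.5-fold. The points of miR-55-5p (1.54) and, narrowly, miR-51-5p (1.37) are also right of the band. Left of it are the 3p arms of mir-52 and mir-53 and miR-56-5p (0.832).

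Of the seed arms, 5 had at least 1000 reads over both libraries and were set beside the 42 other loci of that depth. These others had a median ratio of 1.05 with quartiles of 0.883 and 1.196, and 25 of 42 had a ratio above 1. miR-54-3p (1.31) and miR-51-5p (1.37) lay above that upper quartile, as did miR-56-3p by a narrow margin, whereas miR-52-5p, like miR-53-5p, was between the quartiles. The ratios of the others ran from 0.437 to 2.73, so the family's abundant members stayed within their range.

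**Figure D3:**
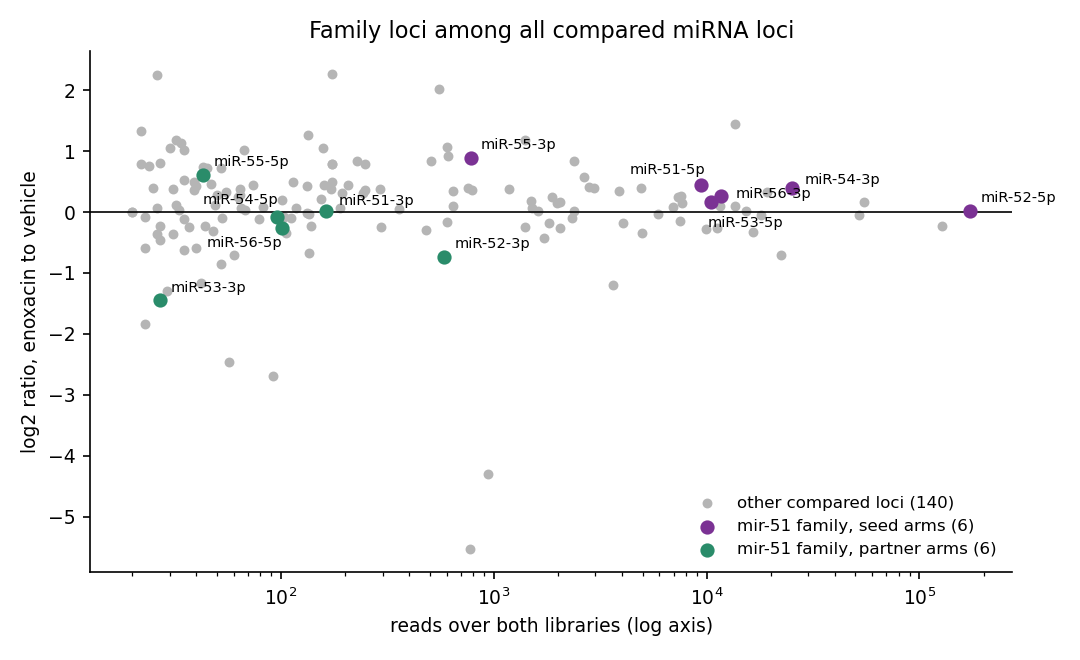
Log2 ratio of enoxacin to vehicle against reads over both libraries (log axis) for the 152 compared loci, of which 140 are outside the family. The seed arms other than miR-55-3p lie at the deep end with log2 ratios from 0.02 to 0.45, and the partner arms have 27 to 584 reads and scatter from -1.44 to 0.61.

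Ratios between members within a library do not depend on the library totals, and they showed a shift in the make-up of the family away from miR-52-5p. Of the reads of the 6 seed arms, miR-52-5p took 77.0% in vehicle (76.7 to 77.2%) and 72.9% in enoxacin (72.6 to 73.2%). miR-54-3p took 9.89% in vehicle (9.72 to 10.1%) and 12.05% in enoxacin (11.9 to 12.2%). miR-51-5p took 3.61% and 4.60%, miR-56-3p 4.79% and 5.34%, miR-53-5p 4.48% and 4.68%, and miR-55-3p 0.252% and 0.434%. All 5 were thus higher relative to miR-52-5p in the enoxacin library. By ratio, miR-52-5p ranked 91 from the highest among the 152 compared loci, so most compared loci were also higher relative to it. The leading member's share of its family's reads went from 65.7% in vehicle to 58.5% in enoxacin in the mir-58/80 family. In the mir-35 family it went from 47.9% to 48.8%. The shift is thus not read as particular to the mir-51 family.

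The size of this shift differed among the members. Relative to miR-52-5p, miR-55-3p was 1.82-fold higher in enoxacin (95% counting interval 1.58 to 2.11). miR-51-5p was 1.34-fold higher (1.29 to 1.40) and miR-54-3p 1.29-fold higher (1.253 to 1.32). miR-56-3p was 1.18-fold higher (1.13 to 1.22) and miR-53-5p 1.10-fold higher (1.06 to 1.15). Of the 15 pairs that the 6 seed arms form, 14 had an interval of this relative change that excluded 1. The exception was miR-51-5p and miR-54-3p, which come from different chromosomes, with a relative change of 1.04 (0.996 to 1.10). The count of 14 follows depth as well as the size of the change, because abundant loci have narrow intervals. No such count was made for pairs outside the family, so it is not read as particular to the family.

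The near identity of miR-52-5p and miR-53-5p means that the alignment may divide their reads unevenly. miR-53-5p had 5.82% as many reads as miR-52-5p in vehicle and 6.42% in enoxacin, and the effect of misassigned reads on its value was not tested. With both summed, their ratio was 1.02 (1.01 to 1.03). Relative to that sum, miR-54-3p was 1.28-fold higher in enoxacin (1.246 to 1.31), miR-51-5p 1.34-fold (1.28 to 1.39), miR-56-3p 1.17-fold (1.13 to 1.21) and miR-55-3p 1.81-fold (1.57 to 2.09).

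**Figure D4:**
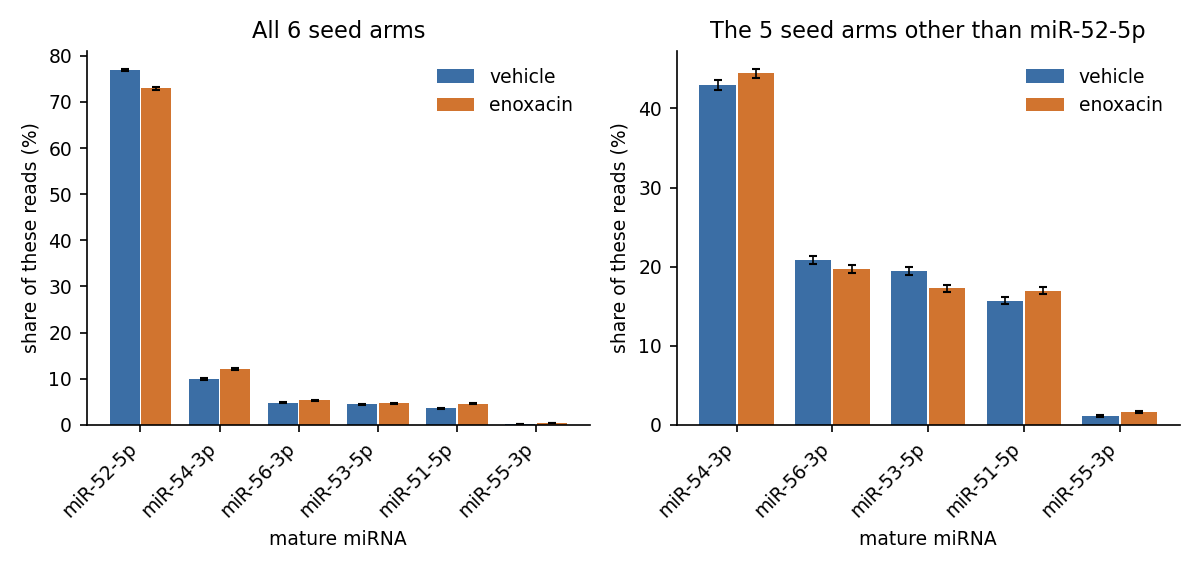
Share of seed arm reads (%) held by each member in the vehicle and enoxacin libraries, over all 6 seed arms (left) and over the 5 other than miR-52-5p (right), with exact 95% binomial intervals. The miR-52-5p bar is lower in enoxacin (72.9% against 77.0%), and among the rest miR-54-3p holds 43.0% and 44.5%.

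By position in the genome, the seed arms of the X cluster together took 18279 vehicle reads and 19248 enoxacin reads, for a summed ratio of 1.28 (1.26 to 1.31). Those of mir-51 and mir-53 had 9905 and 10019 reads, a summed ratio of 1.23 (1.20 to 1.27), with an interval that overlapped that of the cluster. Such overlap does not show that both groups were alike, and their relative change was not computed. The mir-52 locus stood apart from both at 1.02. Within each group the members differed: relative to miR-54-3p of the same cluster, miR-55-3p was 1.42-fold higher in enoxacin (1.22 to 1.64) while miR-56-3p had a relative value of 0.914 (0.875 to 0.955). Relative to miR-53-5p, its neighbour miR-51-5p was 1.22-fold higher (1.15 to 1.29). With miR-52-5p set aside, the other 5 seed arms took 28184 vehicle reads and 29267 enoxacin reads, for a summed ratio of 1.26 (1.24 to 1.29).

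The partner arms were rare, with 634 reads in vehicle and 380 in enoxacin over all 6 hairpins, a summed ratio of 0.730 (0.641 to 0.830). The partner of the dominant member, miR-52-3p, was read 391 times (36.5 RPM) in vehicle and 193 times (22.0 RPM) in enoxacin, which is a ratio of 0.601 (0.503 to 0.716). miR-53-3p had 21 and 6 reads, a ratio of 0.348 (0.115 to 0.891). The wide interval of miR-53-3p reflects its small counts, and miR-52-3p alone supplied most partner arm reads.

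The other 4 partner arms had intervals that included 1. For miR-51-3p the 89 reads in vehicle and 74 in enoxacin gave a ratio of 1.01 (0.733 to 1.39). miR-54-5p had 54 and 42 reads (0.947, 0.617 to 1.44), and miR-56-5p had 60 and 41 (0.832, 0.545 to 1.26). miR-55-5p, with 19 and 24 reads, had a ratio of 1.54 (0.807 to 2.97). Without mir-52 the partner arms had 243 and 187 reads and a summed ratio of 0.937 (0.770 to 1.14), so the lower sum over all 6 rests largely on miR-52-3p.

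Within hairpins, the partner arm took a smaller share in enoxacin in 6 of 6. For mir-52 this share was 0.413% in vehicle (0.373 to 0.456%) and 0.245% in enoxacin (0.211 to 0.281%). For mir-53 it was 0.382% in vehicle (0.236 to 0.583%) and 0.119% in enoxacin (0.0435 to 0.258%). These were the 2 hairpins whose change in partner to seed arm ratio had an interval excluding 1, at 0.591 (0.497 to 0.702) for mir-52 and 0.310 (0.125 to 0.769) for mir-53. For the others the change was 0.695 for mir-56, 0.724 for mir-54, 0.741 for mir-51 and 0.830 for mir-55, each with an interval that included 1.

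Among hairpins outside the family with both arms compared, the arm with fewer reads had the lower ratio in 29 of 43 (67.4%), with a median difference of -0.19 on the log2 scale against -0.49 for the 6 family hairpins. A lower minor arm was thus common in the table, and nothing particular to the family is drawn from its count. The hairpins also differed in partner arm share. In vehicle it ran from 0.382% for mir-53 to 5.81% for mir-55 (3.53 to 8.93%), the hairpin with the lowest level. mir-51 followed with 1.97% and mir-56 with 1.01%, while mir-54 was at 0.444%. The mir-55 value rests on 19 vehicle reads of miR-55-5p, which may not be separable from reads of mir-55b on the opposite strand.

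**Figure D5:**
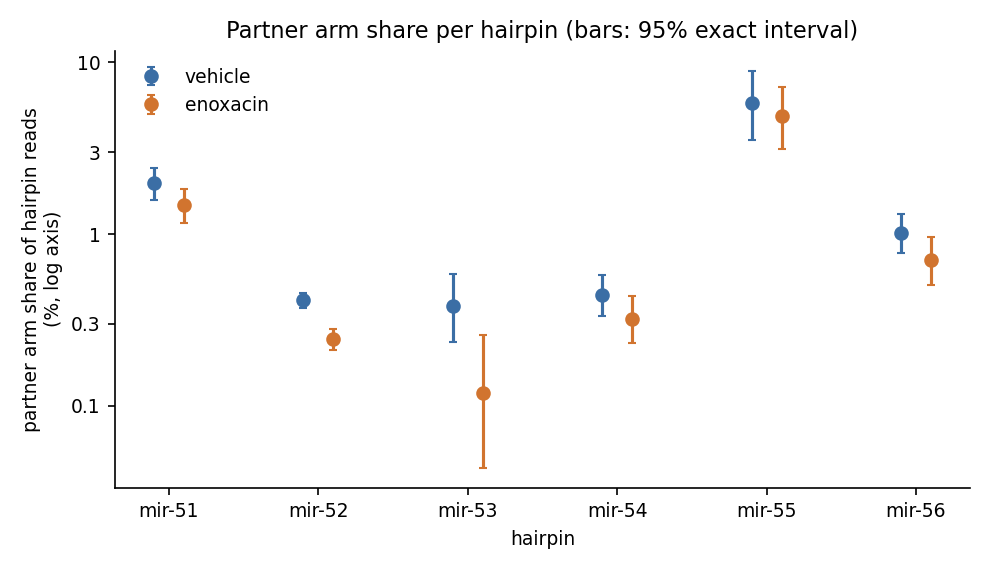
Partner arm share of all reads of each hairpin (%, log axis) in the vehicle and enoxacin libraries, with exact 95% binomial intervals. The enoxacin point is below the vehicle point for each of the 6 hairpins, and the intervals are separate for mir-52 alone.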

How the data were processed

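The deposited table lists mature miRNA loci with positions, raw read counts per library, RPM values, the enoxacin to vehicle ratio and its log2. Per the submitters' processing notes, Bowtie2, bedtools and the build ce10 were used. The sources used here state no version, role or filter, nor how strand and multiply matching reads were treated. Per the labels' protocols, small RNA was enriched from 10 µg of TRIzol-extracted RNA per group for a SOLiD library kit. The column headed as control was taken as vehicle.

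Library totals were recovered from the deposited counts and RPM values, and the authors' deposited ratio equalled the ratio computed here within 1e-06 for all 12 loci. Intervals at 95% are Clopper-Pearson: conditional on the 2 counts for each ratio, and binomial for each share. Relative changes between members or arms have log-scale intervals from the sum of inverse counts. Log2 ratios used a pseudocount of 0.5 reads. The interval and the calling rule were tested on simulated counts that carry counting error alone. That test cannot show how they fare with variation between libraries. All 375 loci were processed and family values are printed. The members, lists, rule and alternatives were chosen with earlier results of these data known. All 12 family loci are named by rule, and outside the family the leading other miRNA, tissue miRNAs and the mir-35 and mir-58/80 families. The miR-356 and miR-5592 loci are named for their overlap on opposite strands. Alternatives were other scalings, minimums, pseudocount and thresholds, summed arms and leaving out mir-52. Mature sequences are not printed here. Python 3.11.15, numpy 2.4.6, pandas 2.3.3, scipy 1.17.1, matplotlib 3.10.9, R 4.3.3 and edgeR 4.0.16 (TMM) were used.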

Additional observations from a re-analysis of the deposited data

How the results depend on the processing

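No paired analysis was possible because each group had 1 library, so no replicate could be left out. The calls of miR-55-3p, miR-52-3p and miR-53-3p held under all 4 other scalings and the pseudocount of 1. The count of 1 higher family locus became 0 at a 2-fold and 3 at a threshold under 1.5-fold. The 2 lower became 1 at 2-fold, 1 with a minimum of 100 reads, which leaves 9 loci, and 0 with arms summed per hairpin. Over all loci, the 20 higher became 12 at 2-fold, 35 at the threshold under 1.5-fold and 13 with arms summed, and the 12 lower became 6 with a minimum of 100 reads and 7 with arms summed. The summed family ratio of 1.07 became 0.983 (median of ratios), 0.988 (TMM), 1.06 (miRNA table sum), 1.09 (miRNA reads outside the family, added after seeing the data) and 1.26 (without mir-52). For seed arms these were 0.984, 0.990, 1.06 and 1.26 without mir-52, and the partner arm ratio of 0.730 became 0.937 without mir-52, also added after seeing the data. The family median log2 ratio of 0.10 was -0.03 (median of ratios), -0.02 (TMM) and 0.17 (minimum of 100 reads). The family's share of miRNA reads became 30.6% in vehicle with seed arms only, and 7.10% in vehicle and 8.86% in enoxacin without mir-52. The moves under other scalings come from a shift that is the same for every log2 ratio. It was -0.13 for the median of ratios, -0.12 for TMM and -0.01 for the miRNA table sum. Why the scalings differ was not tested. The other moves come with a different threshold over the same loci, or with fewer or summed loci. Of the 60 log2 ratios of single loci under alternatives, 11 fell beyond the main counting interval, and no call was lost. Depth limits the partner arms: 3 of the 12 loci had fewer than 100 reads.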
